A study of Gallus gallus with 8 samples.

Results

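A set of 9 rows of the deposited miRNA table makes up the blood and endothelial miRNAs described here, of 994 rows in all. They were chosen by miRNA number alone, with any letter or arm. The erythroid group was to hold miR-451 and miR-144, the leukocyte group miR-142, miR-223, miR-150 and miR-155, and the endothelial group miR-126. The rows found were gga-miR-451, gga-miR-144-3p and gga-miR-144-5p, then gga-miR-142-3p, gga-miR-142-5p, gga-miR-223 and gga-miR-155, and lastly gga-miR-126-3p and gga-miR-126-5p. They cover 6 of the 7 numbers, as no row of the table carried the number of miR-150. The tissue was ectoderm dissected from the frontonasal ectodermal zone, which helps to pattern the upper jaw, of untreated Rhode Island Red chick embryos. HH22 (Hamburger-Hamilton stage 22, 72 h of incubation, after Sonic hedgehog comes on in this zone) and HH18 (stage 18, 48 h, before it) have 4 libraries each, numbered 1 to 4 at HH22 and 5 to 8 at HH18. Each library pooled 2 chicks, so every value is that of a pool and p-values measure the spread between pools.

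As background, miR-144 and miR-451 are made from 1 precursor transcript that is switched on in red blood cell precursors, and miR-451 is matured by the Argonaute protein itself and not by Dicer. miR-142 is found across blood cell lineages, miR-223 in granulocytes and monocytes, and miR-155, the product of the BIC transcript, in activated lymphocytes and macrophages. miR-126 is the best known miRNA of endothelial cells, where its host gene EGFL7 is active, and in mouse and zebrafish it is needed for sound vessels. In the embryonic face, vessels and circulating blood run in the mesenchyme under the ectoderm. In the GRCg7b annotation, the genes for miR-451 and miR-144 neighbour each other with 0 genes between them. MIR126 overlaps EGFL7, and MIR155 overlaps MIR155HG, the BIC gene.

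Reads summed over the 994 miRNA rows came to 46912793 to 88471588 at HH22 and 6276121 to 31318393 at HH18. This sum stands for the depth and total of a library throughout, and depth and stage cannot be told apart. A read here is a whole multiple of the smallest step recovered from the deposited values, and a normalized count is reads divided by the library's size factor. With 3 reads as the floor of detection, the floor stood at 1.01 to 1.96 normalized counts at HH22 and 2.40 to 12.5 at HH18. Marker miRNAs of epithelium (miR-200, miR-203, miR-205 and miR-429), which mark ectodermal epithelium among other epithelia, summed to 0.898% to 2.07% of the reads in the 8 libraries. The 9 blood and endothelial rows summed to 0.000929% to 0.0489%. None of the 9 shared identical reads with another row. On average most reads were of gga-miR-100-5p (mean 21011200 normalized counts at HH22 and 18379000 at HH18), so every share of reads depends on that row.

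HH22 replicate 4 and HH18 replicates 5 and 6 stood apart in these miRNAs. All 9 members summed to 63.9 RPM (reads scaled to a library of 1000000) in HH22 replicate 4, against 10.3, 10.7 and 12.4 in HH22 replicates 1, 2 and 3. In HH18 the sum was 489 RPM in replicate 5, and 77.8, 9.29 and 10.99 in replicates 6, 7 and 8. HH18 replicate 5 was therefore 6.28-fold above the next HH18 library and HH22 replicate 4 was 5.16-fold above the next HH22 library. HH18 replicate 6 was in turn 7.08-fold above the higher of HH18 replicates 7 and 8. It also lay above HH22 replicate 4 in RPM, but slightly below it in normalized counts (2041 against 2089). Whether a library held more cells of a type or more of these miRNAs per cell cannot be told apart in bulk tissue. HH22 replicate 4 had 50083999 reads, close to HH22 replicates 2 and 3, and HH18 replicates 5 and 6 had 12740243 and 6276121, the lowest depths of the 8.

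The 3 groups did not take the same course across the libraries. The erythroid sum was 4.11, 1.45, 5.38 and 25.4 RPM in HH22 replicates 1 to 4, and 187, 4.46, 3.19 and 0.807 in HH18 replicates 5 to 8. It was thus high in HH22 replicate 4 and most of all in HH18 replicate 5, and the stages overlapped. The leukocyte sum was 0.407, 2.24, 0.267 and 19.6 RPM in HH22 replicates 1 to 4, and 204, 54.3, 1.18 and 0.192 in HH18 replicates 5 to 8. Another library, HH18 replicate 6, was high for this group without being high for the erythroid one. Its leukocyte sum was 46.0-fold above that of HH18 replicate 7, but its erythroid sum only 1.40-fold. Most of that leukocyte sum was 1 row: of 341 reads, 277 were of miR-142-5p, 50 of miR-223 and 14 of miR-142-3p. The endothelial sum was 5.78, 7.06, 6.75 and 18.9 RPM in HH22 replicates 1 to 4, and 98.0, 19.0, 4.92 and 9.99 in HH18 replicates 5 to 8. Across all 8 libraries the highest sum was 19.9-fold above the lowest for the endothelial group, 232-fold for the erythroid group and 1060-fold for the leukocyte group, whose lowest sum rests on 5 reads. Outside HH22 replicate 4 and HH18 replicate 5, the erythroid sum ranged from 0.807 to 5.38 RPM and the endothelial sum from 4.92 to 19.0.

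**Figure D1:**
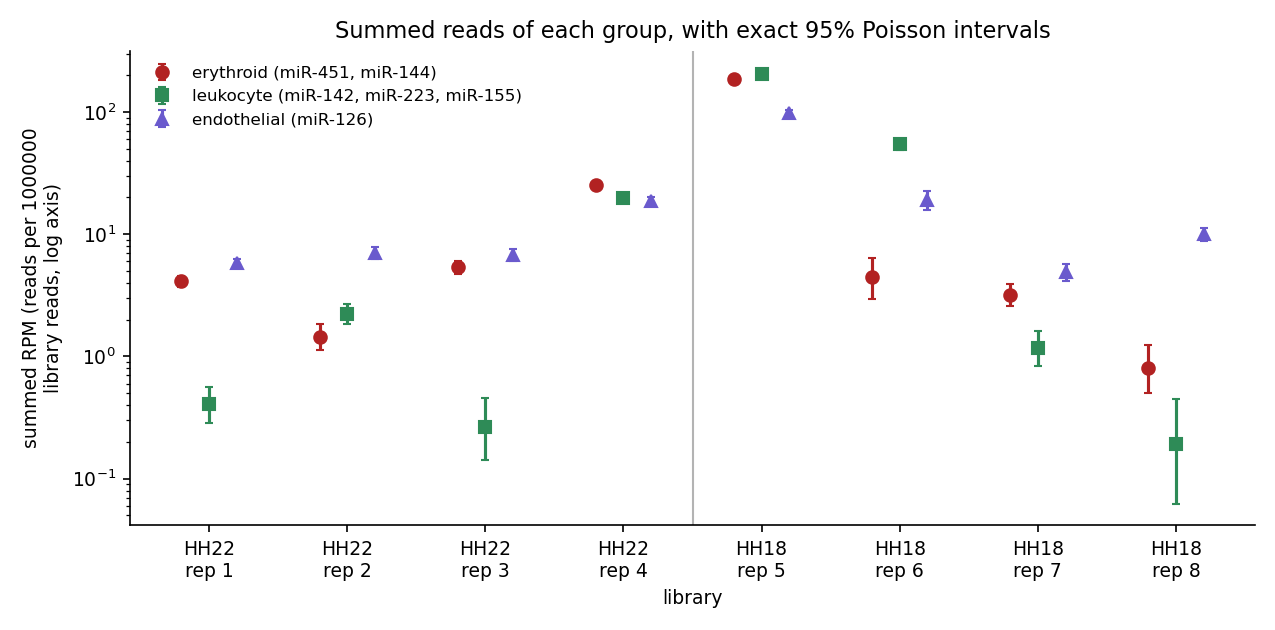
Summed reads of the erythroid, leukocyte and endothelial members as RPM (log axis) in each of the 8 libraries, with exact 95% Poisson intervals that cover counting error only. HH22 replicate 4 and HH18 replicate 5 lie above the other libraries of their stage for all 3 groups, and HH18 replicate 6 is high for the leukocyte group (54.3 RPM) and not for the erythroid group (4.46).

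The make-up of the members' reads differed accordingly. Endothelial miR-126 held 56.1%, 65.7%, 54.5% and 29.5% of the members' reads in HH22 replicates 1 to 4, and 20.1%, 24.4%, 52.9% and 90.9% in HH18 replicates 5 to 8. It was the largest group in 5 of the 8 libraries, the exceptions being HH22 replicate 4 and HH18 replicates 5 and 6. In HH18 replicate 6, leukocyte rows held 69.9% of the members' reads and erythroid rows 5.74%. In HH18 replicate 8, with 286 reads of members in all, leukocyte rows held 1.75%.

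Sums of other marker lists in HH22 replicate 4 and HH18 replicates 5 and 6 were also set beside those of other libraries of their stage. The epithelial sum was 13898 RPM in HH22 replicate 4, below the 19796 to 20651 of the other HH22 libraries, and 8979 in HH18 replicate 5, below the 9939 to 15011 of the other HH18 libraries. The sum of 4 mesenchyme rows (miR-199 and miR-214) was 220.05 RPM in HH22 replicate 4, just below the 224 to 340.03 of the other HH22 libraries. In normalized counts it was 7190, within the 6658 to 9415 of those libraries. In HH18 replicate 5 the mesenchyme sum was 184 RPM, above the 76.5 to 125 of the other HH18 libraries. The neural sum (miR-9, miR-124 and miR-219) was 496 RPM in HH22 replicate 4 against 568 to 652 in the other HH22 libraries, and 637 in HH18 replicate 5 against 870.1 to 1095 in the other HH18 libraries. The muscle sum (miR-1, miR-133, miR-206 and miR-499) was 2.82 RPM in HH22 replicate 4 against 0.426 to 1.68 in the other HH22 libraries. In HH18 replicate 5 it was 0.392, within the 0 to 1.15 of the other HH18 libraries. HH18 replicate 6 had 12495 RPM for the epithelial and 983 for the neural sum, both within the range of HH18 replicates 7 and 8. Its mesenchyme sum of 125 RPM lay above their 98.1 and 76.5, and its muscle sum of 0 lay below their 0.862 and 1.15. HH18 replicate 8, lowest of all libraries for the erythroid and leukocyte sums, had an epithelial sum of 9939 RPM, next to the 8979 of HH18 replicate 5. The part of these differences between libraries in the members' values was not tested.

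Among the erythroid members, gga-miR-451 was detected in every library. It had 87.2, 41.4, 142.7 and 542 normalized counts in HH22 replicates 1 to 4, against 3694, 113, 79.9 and 25.5 in HH18 replicates 5 to 8. HH18 replicate 5 lay 32.7-fold above the next HH18 library, and the other 3 HH18 values lay within or below the HH22 range. The stage means were 203.4 ± 229.6 at HH22 and 978 ± 1811 at HH18 (SD, n = 4 each), so each SD exceeded its mean. On log2(normalized count + 1) the difference between the stages was -0.41 (SE 1.35, 95% interval -3.39 to 2.58, limma adjusted p = 0.881).

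gga-miR-144-3p, which shares its transcript with miR-451, was present in few libraries. It had 17.8, 0, 0.568 and 284 normalized counts in HH22 replicates 1 to 4, against 1759, 4.18, 0 and 1.27 in HH18 replicates 5 to 8. More than 3 reads were found in 3 of the 8 libraries only, HH22 replicates 1 and 4 and HH18 replicate 5. The log2 fold change was -0.33 (SE 2.50, 95% interval -5.85 to 5.20, limma adjusted p = 0.944).

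gga-miR-144-5p, the opposite arm of the same hairpin, was scarce. It had 17.1, 1.26, 5.68 and 3.91 normalized counts in HH22 replicates 1 to 4, against 48.5, 0, 0 and 0 in HH18 replicates 5 to 8. All 4 HH22 libraries held reads of it and 1 HH18 library did, but HH22 replicate 2 held 2 reads only, under the floor. With libraries thinned to equal depth, HH22 replicates 1 to 4 held 9, 1, 0 and 2 reads, and HH18 replicates 5 to 8 held 10, 0, 0 and 0. The floor of 3 reads, however, stood at 12.5, 2.40 and 3.82 normalized counts in HH18 replicates 6, 7 and 8. It was the 1 tested member with a fitted difference above 0 (log2 fold change 1.19, SE 1.39, 95% interval -1.87 to 4.25, limma adjusted p = 0.634). That value was 2.60 without HH18 replicate 5 and 0.24 with a pseudocount of 5.

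The ratio of miR-451 to miR-144-3p was not constant. miR-451 made up 65.6% of their joint reads in HH22 replicate 4 (95% exact interval 62.95% to 68.3%) and 67.7% in HH18 replicate 5 (65.8% to 69.6%), the libraries richest in both. In HH22 replicates 1, 2 and 3 it made up 83.1%, 100% and 99.6%, and in HH18 replicates 6, 7 and 8 it made up 96.4%, 100% and 95.2%. The lowest of these lower interval bounds, 76.2% in HH18 replicate 8, which had 21 joint reads, lies above the upper bounds of HH22 replicate 4 and HH18 replicate 5. Intervals of this kind cover counting error only.

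The leukocyte members varied widely between libraries. gga-miR-142-5p had 11.7, 1.88, 0.568 and 329 normalized counts in HH22 replicates 1 to 4, against 2839.6, 1158, 0.799 and 2.55 in HH18 replicates 5 to 8. HH18 replicates 5 and 6 and HH22 replicate 4 were high, and HH22 replicates 2 and 3 and HH18 replicates 7 and 8 held 1 to 3 reads each. The log2 fold change was -2.53 (SE 2.59, 95% interval -8.24 to 3.19, limma adjusted p = 0.584).

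gga-miR-142-3p, the other arm, had 0.336, 6.28, 0.568 and 207 normalized counts in HH22 replicates 1 to 4, against 2392, 58.5, 28.0 and 2.55 in HH18 replicates 5 to 8. HH22 replicate 4 and HH18 replicate 5 were again the highest of their stage, while HH18 replicate 6 was far lower for this arm than for miR-142-5p. The fitted difference was the largest of the members, a log2 fold change of -3.04 (SE 2.15, 95% interval -7.80 to 1.71, limma adjusted p = 0.419).

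gga-miR-223, the myeloid member, had 0, 57.8, 6.25 and 100.5 normalized counts in HH22 replicates 1 to 4, against 755, 209, 0.799 and 1.27 in HH18 replicates 5 to 8. HH18 replicates 5 and 6 were high, as for miR-142-5p, and HH18 replicates 7 and 8 held 1 read each. HH22 replicate 2, with 92 reads of miR-223, held 10 and 3 reads of the miR-142 arms, whereas HH22 replicate 1, with 0 reads of miR-223, held 1 and 35. The log2 fold change was -0.98 (SE 2.24, 95% interval -5.91 to 3.96, limma adjusted p = 0.813). miR-155 had 8 reads (5.22 normalized counts) in HH22 replicate 4 and 0 reads in the other 7 libraries, and was not tested.

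Among the endothelial members, gga-miR-126-3p was detected in every library. It had 39.3, 115, 40.4 and 496 normalized counts in HH22 replicates 1 to 4, against 1845, 418, 50.3 and 164 in HH18 replicates 5 to 8. HH22 replicate 4 and HH18 replicates 5 and 6 were high, and the stages overlapped. The stage means were 172.6 ± 218.4 at HH22 and 619 ± 831 at HH18 (SD, n = 4 each), with a log2 fold change of -1.52 (SE 1.11, 95% interval -3.97 to 0.92, limma adjusted p = 0.422).

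gga-miR-126-5p had the smallest spread between replicates of the 8 tested members. It had 132, 92.9, 147 and 121 normalized counts in HH22 replicates 1 to 4, against 1039, 79.4, 72.7 and 167 in HH18 replicates 5 to 8. HH18 replicate 5 lay 6.23-fold above the next HH18 library. HH22 replicate 4, where miR-126-3p was 4.32-fold above the next HH22 library, lay within the range of the other HH22 libraries for the 5p arm. The SD of log2(normalized count + 1) was 0.28 at HH22 and 1.77 at HH18. The log2 fold change was -0.55 (SE 0.79, 95% interval -2.29 to 1.19, limma adjusted p = 0.694).

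**Figure D2:**
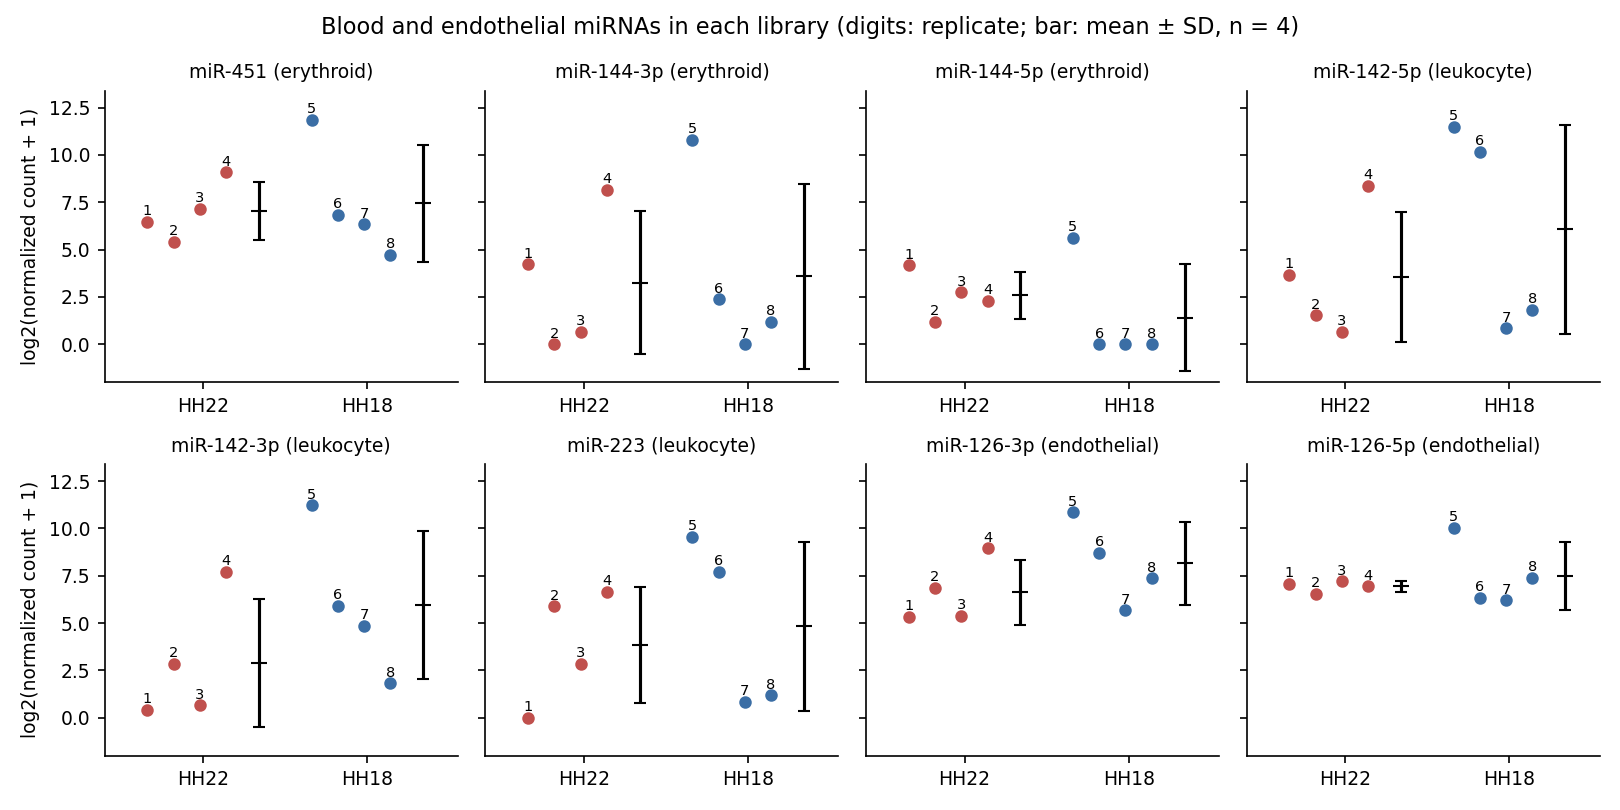
Level of the 8 tested members in each library, as log2(normalized count + 1), with HH22 and HH18 side by side, the replicate number above each point and the mean ± SD of the stage (n = 4) as a bar. HH18 replicate 5 is the highest point in all 8 panels, and HH22 replicate 4 is the highest HH22 point in 6 of them.

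The balance of the hairpin arms, which does not depend on scaling between libraries, differed between libraries of the same stage. For miR-126 the 3p arm held 22.9%, 55.3%, 21.6% and 80.3% of the reads of both arms in HH22 replicates 1 to 4, and 64.0%, 84.0%, 40.9% and 49.6% in HH18 replicates 5 to 8. The highest shares at HH22 (80.3%, 95% exact interval 77.7% to 82.8%) and at HH18 (84.0%, 76.2% to 90.1%) were in HH22 replicate 4 and HH18 replicate 6. In HH22 replicates 1 and 3 and HH18 replicate 7 the 5p arm was instead the more abundant (upper bounds of the 3p share 26.8%, 26.4% and 49.1%).

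For miR-142 the 3p share was 38.6% in HH22 replicate 4 (822 reads of both arms) and 45.7% in HH18 replicate 5 (2266 reads). HH18 replicate 6 differed, with 4.81% of 291 reads (95% exact interval 2.65% to 7.94%). HH22 replicate 1 had 1 read of the 3p arm and 35 of the 5p arm, while HH18 replicate 7 had 35 and 1. For miR-144 the 3p share was 98.6% of 441 reads in HH22 replicate 4 and 97.3% of 783 reads in HH18 replicate 5. It was 51.0% of 104 reads in HH22 replicate 1 (41.0% to 60.9%) and 9.09% of 11 reads in HH22 replicate 3. The remaining libraries had 0 to 2 reads of miR-144 arms.

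**Figure D3:**
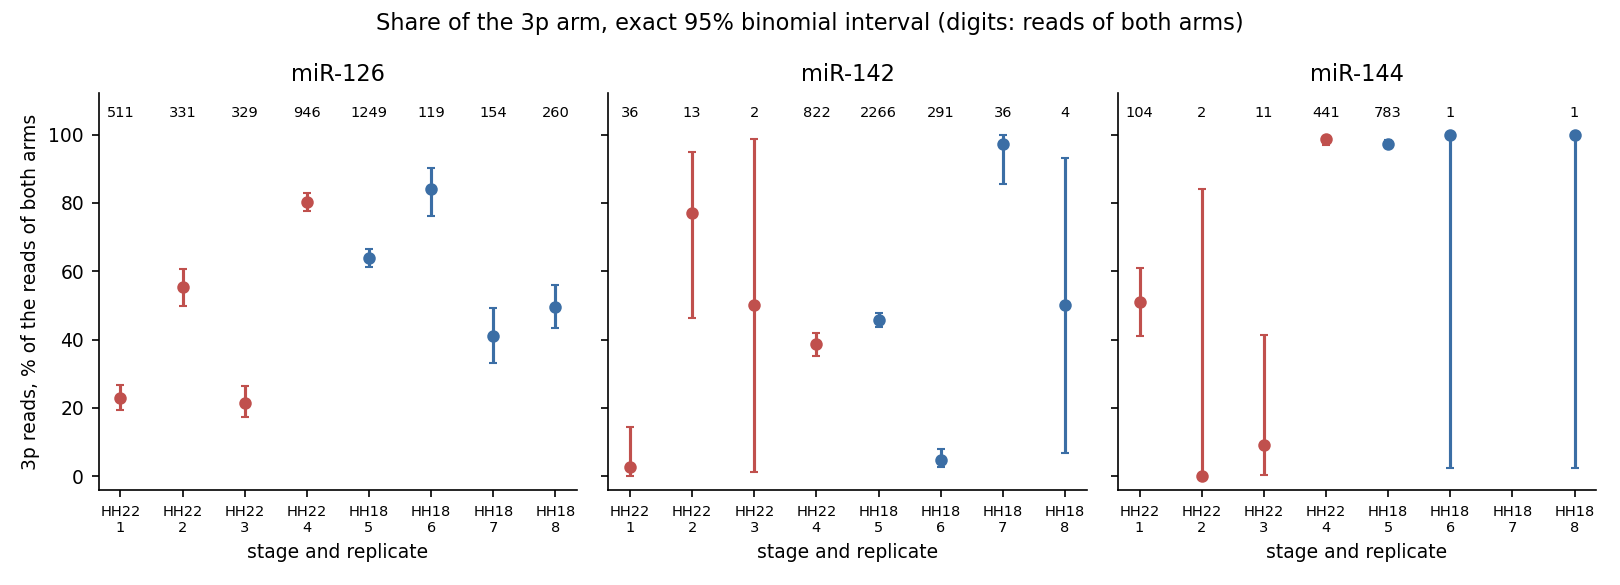
Share of the 3p arm in the reads of both arms of miR-126, miR-142 and miR-144 in each library, in percent, with exact 95% binomial intervals; the digits above give the reads of both arms. The share in miR-126 runs from 21.6% to 84.0%, and in miR-144 it is 98.6% and 97.3% in HH22 replicate 4 and HH18 replicate 5 against 51.0% in HH22 replicate 1.

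Between the stages, 0 of the 8 tested members passed the threshold (limma-trend over all 356 tested miRNAs, Benjamini-Hochberg adjusted p under 0.05), where 14.6% of all tested miRNAs passed, 9.83% as higher and 4.78% as lower at HH22 (35 and 17 miRNAs, against 24 and 47 when libraries were scaled to totals without the 5 most abundant miRNAs). At an unadjusted p under 0.05 the count was 0, against 25.0% of all tested miRNAs, and by voom both counts were 0 as well. With 1 library left out the unadjusted count was 1 without HH22 replicate 4 (miR-142-3p, log2 fold change -4.64, limma adjusted p = 0.232) and 1 without HH18 replicate 5 (miR-144-5p, 2.60, limma adjusted p = 0.0855). The stages overlapped in all 8 members, whereas 20.2% of all tested miRNAs showed no overlap. The fitted difference was below 0 for 7 of the 8, against 36.0% of all tested miRNAs, with a median of -0.76 against 0.38 (log2 fold changes). Scaled to totals without the 5 most abundant miRNAs, it was below 0 for 7 of the 8 against 51.5%, with a median of -1.17 against -0.05. Of these 7 signs, 4 turned without HH18 replicate 5. miR-451, miR-144-3p, miR-223 and miR-126-5p then had log2 fold changes above 0 (1.07, 2.07, 0.60 and 0.30), miR-142-3p, miR-142-5p and miR-126-3p stayed below 0, and 0 of 8 passed. Leaving out HH22 libraries turned some of the same signs: miR-451 (0.13) and miR-144-3p (0.76) without replicate 2, miR-144-3p (0.54) without replicate 3, and miR-223 (0.31) without replicate 1. Without HH18 replicate 5 and HH22 replicate 4 together, which was added with their values in view, 6 members could be tested and 0 passed.

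**Figure D4:**
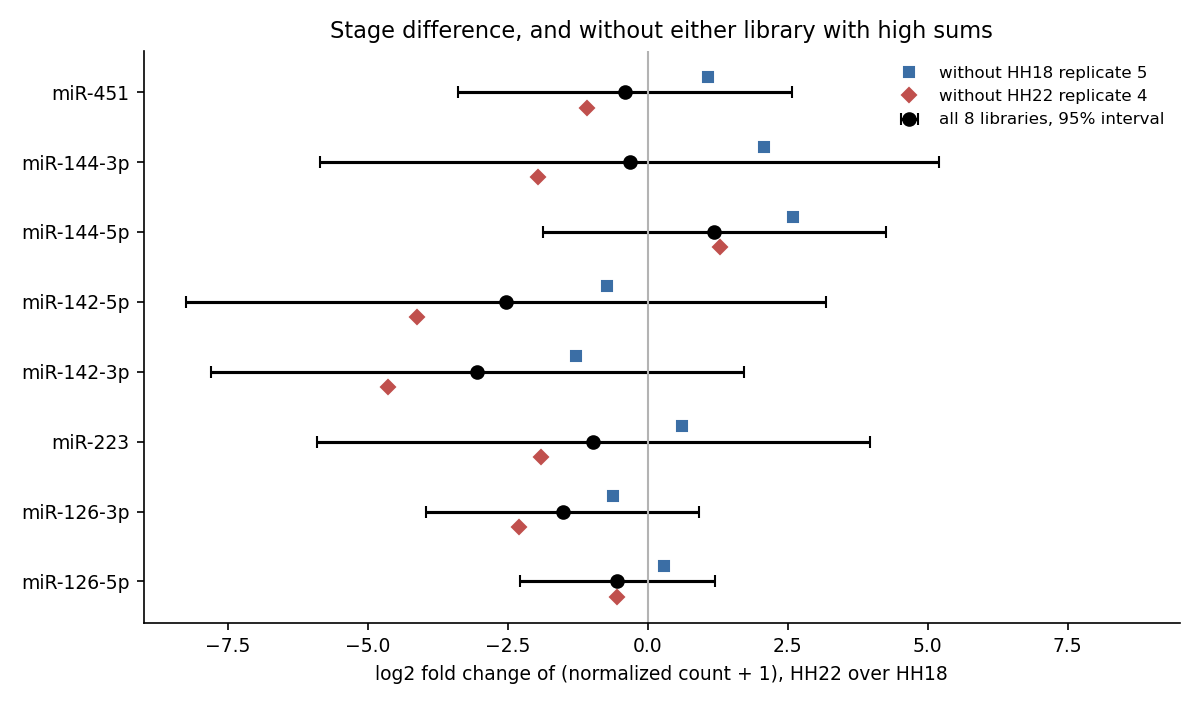
Log2 fold change of (normalized count + 1), HH22 over HH18, for the 8 tested members, with 95% limma intervals from all 8 libraries in black; squares are the values without HH18 replicate 5 and diamonds those without HH22 replicate 4. All 8 intervals include 0, and miR-451 stands at -0.41 with all libraries and at 1.07 without HH18 replicate 5.

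The spread between replicates of a stage was wide compared with other miRNAs. The residual SD of log2(normalized count + 1) had a median of 3.05 over the 8 members, against 1.16 over all 356 tested miRNAs and 1.00 over the 316 whose mean reached 10 normalized counts. Of these 316, miR-142-5p had the largest residual SD (4.602), miR-144-3p the second (4.36), miR-223 the third largest (3.82) and miR-142-3p the fifth (3.66). miR-451 stood at 2.44 and miR-126-3p at 1.96, with 17.7% and 32.3% of the 316 above them. miR-126-5p, at 1.27, had 44.9% of them above it. By this measure the tested leukocyte members and miR-144-3p ranked among the most variable miRNAs of the data set, and miR-126 did not. Their spread includes libraries at or under the floor of 3 reads. The mean of miR-144-3p (258) rests mostly on HH18 replicate 5 (1759) and HH22 replicate 4 (284). The same libraries make its spread, so its rank beside miRNAs abundant in every library is a description only. Of the 8 libraries, miR-144-3p passed that floor in 3, miR-142-5p in 4, and miR-142-3p and miR-223 in 5 each.

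**Figure D5:**
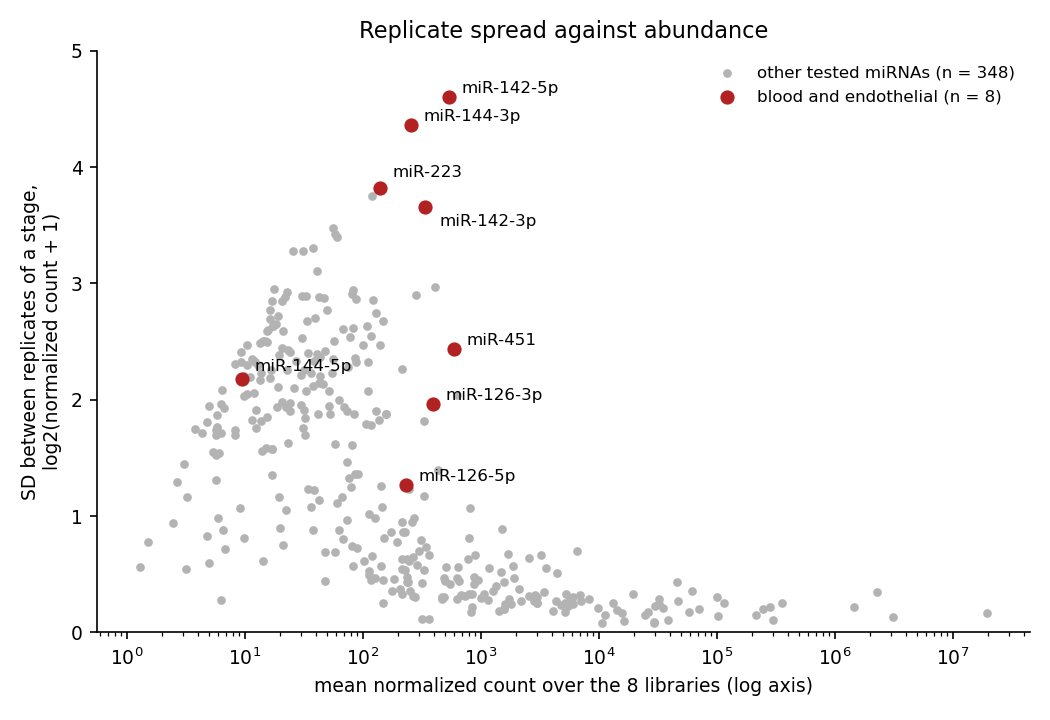
Residual SD between replicates of a stage, on log2(normalized count + 1), against the mean normalized count over the 8 libraries (log axis), for the 8 tested members (red) and the other 348 tested miRNAs (grey). miR-142-5p, miR-144-3p, miR-223 and miR-142-3p (3.66 to 4.602) lie at the upper edge, while miR-126-5p (1.27) lies lower.

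HH18 replicate 5 was the highest of the 8 libraries for all 8 tested members, against 20.2% of all tested miRNAs. HH22 replicate 4 was the highest HH22 library for 6 of the 8, against 20.5%, the exceptions being miR-126-5p and miR-144-5p. HH18 replicate 5 was the highest HH18 library and HH22 replicate 4 the highest HH22 library for 6 of the 8 members. The same was true of 6.74% of all tested miRNAs. These libraries were picked after their values were seen, so the shares are a description. The counts of 8 and 6 were the same when libraries were scaled to their totals, to their totals without the 5 most abundant miRNAs, or by trimmed means (TMM).

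Among the 309 tested non-members whose mean reached 10 normalized counts, the profile nearest to the most abundant member of each group was in every case that of miR-146a-5p, a miRNA known from innate immune signalling. Nearness was the root-mean-square difference of log2(normalized count + 1) over the 8 libraries after centring each profile. It was 0.79 from miR-126-3p, 1.22 from miR-451 and 3.13 from miR-142-5p, where the medians over the 309 were 2.23, 2.36 and 4.41. A flat profile lies at 1.86, 2.12 and 4.18 in the same order, so the profile nearest to miR-142-5p was not close to it. miR-146a-5p had 101, 172, 102 and 296 normalized counts in HH22 replicates 1 to 4, against 2165, 339, 140.7 and 148 in HH18 replicates 5 to 8. It was thus highest in HH18 replicate 5, then in HH18 replicate 6, and HH22 replicate 4 was the highest HH22 library. Its log2 fold change was -1.21 (SE 0.81, 95% interval -3.00 to 0.57, limma adjusted p = 0.384). The next nearest were miR-1782 and miR-551-5p for miR-126-3p (1.23 and 1.39), miR-29b-3p and let-7g-5p for miR-451 (1.62 and 1.63), and miR-196-5p and let-7i for miR-142-5p (3.15 and 3.25). Of these, miR-29b-3p had 0.336, 0, 38.7 and 10.4 normalized counts in HH22 replicates 1 to 4, against 909.6 in HH18 replicate 5 and 4.18, 0 and 0 in HH18 replicates 6 to 8.

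Other miRNAs known from blood cells or vessels (rows of miR-146, miR-218, miR-221 and miR-222) did not share these swings as a sum, which is mostly miR-146c-5p. The row of miR-146a-5p, which belongs to this list, did share them. It lay 6.39-fold above the next HH18 library in HH18 replicate 5 and 1.72-fold above the next HH22 library in HH22 replicate 4. This row was singled out above by its nearness to the members over the same 8 libraries, so its sharing is a description only. The 13 rows summed to 10549 RPM in HH22 replicate 4 against 11383 to 12887 in the other HH22 libraries, and to 11118 in HH18 replicate 5 against 10537 to 13809 in the other HH18 libraries. Of 10 tested rows 1 rose and 0 fell, against 9.83% higher and 4.78% lower over all tested miRNAs. The median residual SD of the 10 was 0.30, with miR-146a-5p at 1.40 and miR-146b-3p at 2.21. The row that rose was miR-221-3p, which restrains the KIT receptor in human blood and vessel cells, with 18824 ± 1003 normalized counts at HH22 and 12605 ± 1952 at HH18 (SD, n = 4 each; log2 fold change 0.59, SE 0.13, limma adjusted p = 0.0117). It was no longer past the threshold with scaling to library totals (0.51, adjusted p = 0.0785) or to totals without the 5 most abundant miRNAs (0.12, adjusted p = 0.462). The most abundant rows were miR-146c-5p, with 247859 ± 21681 normalized counts at HH22 and 241853 ± 43305 at HH18, and miR-221-5p, with 55257 ± 5171 at HH22 and 61786 ± 8923 at HH18 (SD, n = 4 each). Neither passed (limma adjusted p = 0.859 and 0.474), but with totals without the 5 most abundant miRNAs both passed as lower at HH22 (log2 fold change -0.42, limma adjusted p = 0.0281, and -0.62, adjusted p = 0.00852), so that 0 of the 10 rows rose and 2 fell.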

How the data were processed

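Small RNA from 8 pools of 2 chicks was sequenced. The labels' protocols name a Qiagen miRNeasy kit for RNA and Illumina's TruSeq small RNA chemistry; kallisto 0.44.0, cutadapt 1.8.1 and bcl2fastq are listed, per the submitters' processing notes. The reference and build were not given in the sources used here. The deposited values are log2-like, and how the authors made them is not stated. All libraries shared 1 lowest value, 8.52. Undoing a closed-form variance-stabilizing transformation turned 100% of the values above 0 into whole multiples of 1 step per library (tolerance 0.001), and 1 divided by that step matched the library's median-of-ratios size factor, taken over 200 features. A read is thus a rounded kallisto estimate, and similar miRNAs can share estimates. RefSeq (GRCg7b) gave names and neighbouring genes only.

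The deposited values are not counts, and limma-trend was run on log2(normalized count + 1) of the normalized counts recovered from them. It covered the 356 miRNAs that reached 1 normalized count in 4 libraries or more. HH22 was set over HH18, tests were two-sided, p-values were adjusted by Benjamini-Hochberg over all 356, and the threshold was 0.05. The pseudocount can understate log2 fold changes of low miRNAs, as for miR-144-5p (1.78 with 0.5, 1.19 with 1 and 0.24 with 5). That of miR-144-3p hardly moved (-0.35, -0.33 and -0.37 in the same order). The script was tested on simulated data. Members and lists were chosen with earlier results of these data known, so sums and ratios have no p-value; Dixon's criterion was applied to members and sums only to point out single libraries. Alternatives covered scaling, pseudocount, filter, voom, the deposited log2 values as they are, equal depth by a single random draw, and left-out libraries. Named were all members; the 3 nearest non-members of each group's most abundant member; and, of the other blood and vessel miRNAs, those past the threshold or, if fewer than 2, the 2 most abundant, with miR-221-3p added as the 1 that passed. Software: limma 3.58.1 in R 4.3.3; scipy 1.17.1, numpy 2.4.6, matplotlib 3.10.9 and pandas 2.3.3 in Python 3.11.15.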

Additional observations from a re-analysis of the deposited data

Results flagged for a closer look

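A sample far from the other 3 of its stage was found in 15 of 23 sets of 4 libraries examined (Dixon's criterion at 95%, on the gap to the nearest library over the range); chance flags about 1 in 20 independent sets of normally distributed values. These sets are not that: the sums repeat the members, all share the same 8 libraries, the counts are skewed, and a set with 3 libraries at 0 (miR-155 at HH22, miR-144-5p at HH18) is always singled out. The 15 are therefore a description. It was HH22 replicate 4 in 8 of them and HH18 replicate 5 in 7, always as the highest.

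In HH22 replicate 4 the values set apart were 496 normalized counts of miR-126-3p, 207 of miR-142-3p, 329 of miR-142-5p, 284 of miR-144-3p and 5.22 of miR-155. The erythroid, leukocyte and endothelial sums of the same library, 25.4, 19.6 and 18.9 RPM, were set apart as well.

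In HH18 replicate 5 they were 1039 normalized counts of miR-126-5p, 2392 of miR-142-3p, 1759 of miR-144-3p, 48.5 of miR-144-5p and 3694 of miR-451, with an erythroid sum of 187 and an endothelial sum of 98.0 RPM. Its leukocyte sum (204) was not set apart by this criterion, beside 54.3 in HH18 replicate 6.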

How the results depend on the processing

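The count of members past the threshold was 0 in all 20 alternatives (6 to 9 members tested), and 0 to 0 with 1 library left out; the lowest adjusted p of any member was 0.0855. Of 356 tested miRNAs 52 passed (35 higher, 17 lower; 24 and 47 when scaled without the 5 most abundant), and 27 to 66 with 1 library left out, 24 with no filter and 25 without HH18 replicate 5 and HH22 replicate 4 together, an alternative added after seeing the data. Of 153 member fold changes under alternatives, 137 kept their sign and 16 did not, 11 of these where HH18 replicate 5 was left out. With 1 library left out, log2 fold changes ran from -0.98 to 0.30 for miR-126-5p, from -1.96 to 2.07 for miR-144-3p, from -2.30 to 0.60 for miR-223, and from -1.31 to 1.07 for miR-451, the highest value of each being that without HH18 replicate 5. They ran from 0.66 to 2.60 for miR-144-5p, from -4.64 to -1.29 for miR-142-3p, from -4.27 to -0.73 for miR-142-5p, from -2.35 to -0.63 for miR-126-3p and from -0.051 to 0.15 for miR-146c-5p. Without HH18 replicates 5 and 6 together they turned to 0.10 for miR-126-3p, 0.14 for miR-126-5p, 2.22 for miR-142-5p, 2.83 for miR-223 and 1.499 for miR-451, and 0.069 for miR-146a-5p. Without HH18 replicate 5 and HH22 replicate 4 together they were 0.30 for miR-126-5p and 0.38 for miR-451. Voom gave 0.12 for miR-451. miR-146c-5p turned to -0.028 with library totals, -0.42 without the 5 most abundant (limma adjusted p = 0.0281) and -0.14 without HH18 replicates 5 and 6; the cause was not tested. Scaling without the 5 most abundant moved the median of all tested miRNAs by -0.43. No paired analysis was possible because the sample numbers 1 to 8 are all different. Shallow HH18 libraries limit the scarce members: 1 read is worth 4.18 normalized counts in HH18 replicate 6.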
